A study of Rattus norvegicus with 12 samples.

Results

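The cytochrome P450 enzymes of renal arachidonate metabolism and soluble epoxide hydrolase were examined in the cortex of rat kidney grafts as 10 genes, namely Cyp4a1, Cyp4a2, Cyp4a3, Cyp4a8, Cyp4f1, Cyp4f4, Cyp4f6, Cyp2c23, Cyp2j4 and Ephx2. Every probe set whose platform annotation names one of these genes was taken, which gave 11 of the 31099 probe sets on the array. In all, 14218 genes were named by a probe set with a single symbol. Of the 10 genes, 9 had a probe set of their own. Cyp4a2 was measured by 1 probe set alone, which it shares with Cyp4a3, and Cyp4a8 had 2 probe sets. The samples were 6 arrays of MRP2-deficient grafts, labelled ABCC2-/-, and 6 arrays of wild-type grafts. Every graft was in a wild-type recipient and every sample was labelled male, so the wild-type recipient was common to both groups. The kind of Abcc2 allele, the strain, the age and the time after transplantation are not given in the sources used here. Nor do these sources tell whether the kidneys of 1 genotype had different donors, so a p-value here measures the spread between the grafts that were sampled.

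Arachidonic acid released from membranes is oxidized in the kidney along several routes, and the P450 route has a pair of branches. Enzymes of the CYP4A and CYP4F families hydroxylate the end of the fatty acid chain and make 20-HETE, an eicosanoid that constricts renal arterioles and acts on tubular salt transport. Epoxygenases of the CYP2C and CYP2J families make epoxyeicosatrienoic acids (EETs), which dilate vessels, and soluble epoxide hydrolase, the product of Ephx2, turns these into the less active diols. Cyp4a genes are known targets of the fatty acid receptor PPAR-alpha, and proximal tubule cells are a main site of these enzymes in the rat kidney.

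The Cyp4a genes lie on rat chromosome 5 and differ in how well the array can tell them apart. The promoters of Cyp4a2, Cyp4a3 and Cyp4a8 (RefSeq, GRCr8, minus strand, 250 bases before to 50 bases after the annotated start) are shown because the first pair shares a probe set, while Cyp4a8 has probe sets of its own. They lie at chr5:134170859-134171158 for Cyp4a2, chr5:134352187-134352486 for Cyp4a3 and chr5:133970177-133970476 for Cyp4a8. Capitals mark AGGTCA, the half-site from which binding sites of PPAR-alpha and other nuclear receptors are built, searched on both strands (reverse complement TGACCT).
Cyp4a2: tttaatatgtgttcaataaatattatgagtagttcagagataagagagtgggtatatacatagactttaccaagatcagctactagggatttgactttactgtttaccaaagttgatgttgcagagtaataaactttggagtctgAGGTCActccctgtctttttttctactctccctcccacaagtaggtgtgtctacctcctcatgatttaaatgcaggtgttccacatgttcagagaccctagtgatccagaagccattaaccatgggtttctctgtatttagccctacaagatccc
Cyp4a3: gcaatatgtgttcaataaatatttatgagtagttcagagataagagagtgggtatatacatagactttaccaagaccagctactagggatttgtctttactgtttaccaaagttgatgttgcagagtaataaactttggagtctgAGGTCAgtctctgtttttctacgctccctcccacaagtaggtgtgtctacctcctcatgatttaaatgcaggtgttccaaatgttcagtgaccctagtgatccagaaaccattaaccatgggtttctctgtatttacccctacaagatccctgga
Cyp4a8: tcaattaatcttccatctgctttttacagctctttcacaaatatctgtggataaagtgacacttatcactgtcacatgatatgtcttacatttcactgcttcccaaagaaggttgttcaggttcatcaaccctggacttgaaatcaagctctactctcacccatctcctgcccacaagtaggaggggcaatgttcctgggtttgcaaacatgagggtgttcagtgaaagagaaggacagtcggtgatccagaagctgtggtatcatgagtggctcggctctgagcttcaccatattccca

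The Cyp4a2 and Cyp4a3 promoters matched at 284 of 305 aligned columns (93.1%), against 55.8% for Cyp4a2 and Cyp4a8 and 55.8% for Cyp4a3 and Cyp4a8. AGGTCA stood once in each of the Cyp4a2 and Cyp4a3 promoters, on the strand shown, and on neither strand of the Cyp4a8 promoter. Of the 10 genes, 7 were in the promoter table, and the windows of Cyp4f1, Cyp4f6, Cyp2c23 and Cyp2j4 did not hold these letters. The motif is short, and 16.2% of the 33469 promoters in the table hold it on either strand. A match describes letters and is not a binding site.

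Signals are given as the deposited linear intensity, with the lowest, median and highest array of each genotype, and differences on the log2 scale, deficient minus wild type, each with its standard error (SE) from limma. Intensities of different probe sets were not compared with each other, since probes differ in brightness. In bulk cortex, fewer cells of a type and less RNA per cell cannot be told apart. The check of the labels held: Abcc2, the gene of MRP2, had 0.0387, 0.150 and 0.213 in deficient grafts, against 0.787, 0.887 and 0.987 in wild-type grafts (log2 difference -2.69, SE 0.22, limma adjusted p = 8.35e-06). Markers of proximal tubule, thick ascending limb, collecting duct, glomerulus and vessels were measured, and their values stand with the other lists. Of 11 hepatocyte list genes on the array, 7 were below the level filter, with at most 0.219 on any array, and among these Alb reached 0.164. The other 4 were tested, and of these Apoc3 had 5.03 to 9.37 in deficient and 5.31 to 8.60 in wild-type grafts. Cyp2c11, also on this list, had 0.478 to 11.8 in deficient and 1.84 to 5.12 in wild-type grafts. The precision of every comparison was limited by the 6 arrays per genotype.

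The arrays fell into 2 sets that cut across genotype, and several of the P450 probe sets followed them. The sets were found from the sign of the first component of the variation within genotypes, which held 32.6% of that variation. Array set 1 holds deficient replicates 5, 9 and 11 and wild-type replicates 1, 6 and 9, and array set 2 holds deficient replicates 3, 10 and 14 and wild-type replicates 4, 7 and 8. The hybridization controls, added to the labelled sample, lay between 7.31 and 8.89 in set 1 and between 8.91 and 15.8 in set 2. Whether the sets are batches of hybridization or scanning was not given in the sources used here. The Gapdh 3′ to 5′ ratio, a measure of RNA integrity and labelling, lay between 1.28 and 1.36 in the deficient arrays of set 2 and between 1.64 and 1.93 in all other arrays. The same ratio of beta-actin was higher on every array. It lay between 4.48 and 6.39 in the deficient arrays of set 2 and between 7.06 and 9.79 in all other arrays. The poly-A controls dap, lys, phe and thr, spiked before labelling, had means 7.02, 6.69, 6.21 and 6.03 times as high in deficient as in wild-type arrays, without overlap, so spike or labelling amounts and genotype cannot be told apart.

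No probe set of the 10 genes passed the threshold between genotypes. Of the 11 probe sets, 10 passed the filter on low signal and were tested with all 18625 probe sets, and 0 of these 10 had a limma adjusted p under 0.05, where 0.0215% of all tested probe sets did (all of them lower in deficient grafts). The adjusted p of the 10 lay between 0.606 and 0.995. With the array sets as a block, 0 of the 10 passed too, against 0.601% of all tested probe sets. At an unadjusted p under 0.05, 1 was higher and 1 lower, against 3.35% higher and 4.63% lower over all tested probe sets (7.98% in either direction). Of the 10, 4 had a positive difference, against 45.4% of all tested probe sets. In 0 of the 10 were the genotypes without overlap, against 0.435% of all tested probe sets. The median absolute log2 difference was 0.094 over the 10, against 0.13 over all tested probe sets. For the 9 tested probe sets other than Cyp2j4, the 95% confidence limits of the fold between genotypes lay within 0.682 and 1.35, so larger changes of the measured signal fall outside these intervals. A missed threshold does not show that the genotypes were equal.

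**Figure D1:**
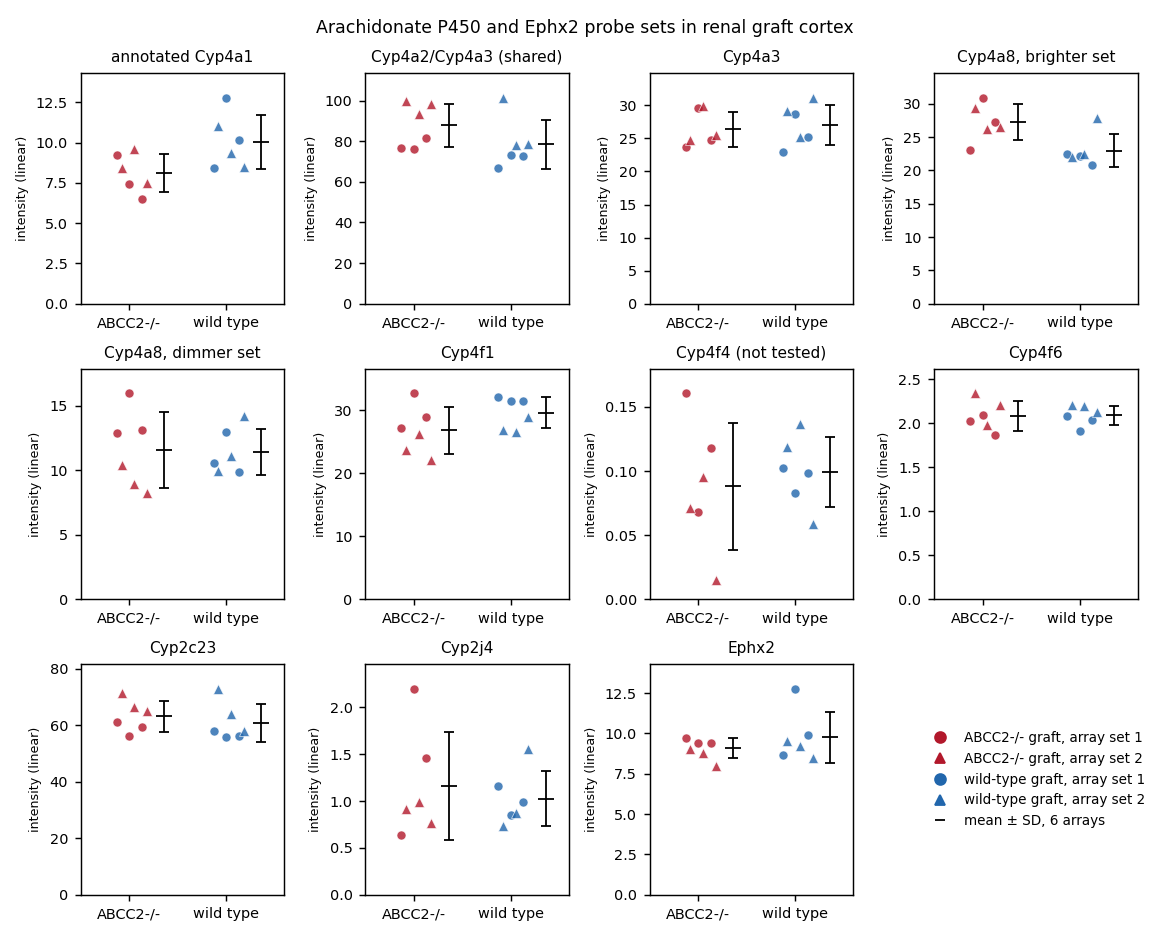
Deposited intensity (linear, axis from 0) of each of the 11 probe sets in ABCC2-/- grafts (left, red) and wild-type grafts (right, blue), with circles for array set 1, triangles for array set 2 and bars for mean ± SD over 6 arrays. The genotypes overlap in every panel, and the Cyp2j4 panel has its highest point, 2.20, in an ABCC2-/- graft.

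Of the hydroxylases of the Cyp4a family, Cyp4a8 had the largest positive difference of the 10 tested probe sets, in the brighter of its 2 probe sets. The brighter set had 23.0, 26.9 and 30.9 in deficient grafts, against 20.8, 22.3 and 27.8 in wild-type grafts. The wild-type mean was exceeded by all 6 deficient arrays, and 2 of them lay above every wild-type array, since wild-type replicate 8 was high. The mean was 27.2 ± 2.70 in deficient and 22.9 ± 2.47 in wild-type grafts (SD, n = 6 each), a fold of 1.19 with 95% limits of 1.04 and 1.35 (log2 difference 0.25, SE 0.09, limma adjusted p = 0.606). Within the array sets the log2 difference was 0.30 in set 1 (adjusted p = 0.293) and 0.19 in set 2 (adjusted p = 0.253).

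The dimmer Cyp4a8 probe set did not show this difference. It had 8.22, 11.7 and 16.0 in deficient grafts, against 9.85, 10.8 and 14.2 in wild-type grafts, and the deficient values spread both above and below the wild-type range. The log2 difference over all arrays was -0.0043 (SE 0.15, limma adjusted p = 0.995). It was 0.34 in array set 1 (adjusted p = 0.309) and -0.34 in array set 2 (adjusted p = 0.122), so the value over all arrays joins opposite values in the sets. In set 1 the deficient arrays had 12.9, 13.1 and 16.0, against 9.85, 10.5 and 12.9 in wild type, and in set 2 the deficient arrays had 8.22, 8.93 and 10.4, against 9.96, 11.1 and 14.2 in wild type. The difference between the sets was not tested. The deficient arrays of set 2 were also those with the lowest Gapdh ratios, and with that ratio as a covariate the log2 difference over all arrays was 0.17.

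Both Cyp4a8 probe sets nevertheless ranked the same arrays first. Deficient replicate 9 was the highest deficient array and wild-type replicate 8 the highest wild-type array in each. With the genotype means within each array set removed, Pearson r of the probe sets was 0.655 in array set 1 (permutation p = 0.142, adjusted p = 0.425, n = 6). Spearman rho was 0.771 there (permutation p = 0.103, adjusted p = 0.308). In set 2 r was 0.947 (permutation p = 0.0194, adjusted p = 0.117) and rho 0.829 (permutation p = 0.0583, adjusted p = 0.308). Without the 2 arrays farthest from the median, r was 0.539 in set 1 and 0.448 in set 2, so the relation in set 2 rests on those arrays. The p-values were two-sided and adjusted over 6 relations, 3 pairs of probe sets in each array set, and none passed. They are approximate, since values with the genotype means removed are not fully exchangeable between genotypes.

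Cyp4a2 and Cyp4a3, which encode 20-HETE synthases and have the closely alike promoters shown above, were read by a shared probe set and by 1 probe set for Cyp4a3 alone. The shared probe set had 76.1, 87.6 and 99.9 in deficient grafts, against 66.6, 75.7 and 101 in wild-type grafts. Deficient arrays were mostly higher, 4 of 6 above the wild-type mean, but wild-type replicate 4 was the highest of all 12 arrays. The log2 difference was 0.17 (SE 0.10, limma adjusted p = 0.639), with 0.14 in array set 1 and 0.19 in array set 2. The deficient arrays of set 2 also had the lowest Gapdh ratios, and with that ratio as a covariate the log2 difference was 0.074. With quantile normalization it was 0.017. This probe set stood between the 99.97 and 99.98 percentiles of signal on the arrays. Whether its signal follows the amount of transcript in proportion was not tested. The signal followed the array sets: deficient arrays had 76.1 to 81.8 in set 1 and 93.5 to 99.9 in set 2, and wild-type arrays 66.6 to 73.4 in set 1 and 77.9 to 101 in set 2.

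The probe set of Cyp4a3 alone had 23.7, 25.1 and 29.9 in deficient grafts, against 23.0, 27.0 and 31.1 in wild-type grafts. The ranges of the genotypes nearly coincided (log2 difference -0.037, SE 0.09, limma adjusted p = 0.889). It showed no correlation past the threshold with the shared probe set over the arrays (n = 6 in each array set). In array set 1 r was 0.288 (permutation p = 0.547, adjusted p = 0.821) and rho 0.257. In array set 2 r was -0.0018 (permutation p = 0.992, adjusted p = 0.992) and rho 0.0857. Leaving out the 2 arrays farthest from the median gave r = 0.867 in set 1 and -0.25 in set 2. How much of the shared signal comes from Cyp4a2 cannot be told apart here.

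The probe set annotated as Cyp4a1, a fatty acid omega-hydroxylase known from rat liver, had the largest negative difference of the 10. It had 6.51, 7.96 and 9.60 in deficient grafts, against 8.42, 9.77 and 12.8 in wild-type grafts. All 6 deficient arrays lay below the wild-type mean and 4 lay below every wild-type array. The mean was 8.11 ± 1.17 in deficient and 10.04 ± 1.67 in wild-type grafts (SD, n = 6 each), a fold of 0.810 with 95% limits of 0.682 and 0.962 (log2 difference -0.30, SE 0.12, limma adjusted p = 0.606). Within the array sets the log2 difference was -0.43 in set 1 (adjusted p = 0.337) and -0.18 in set 2 (adjusted p = 0.359).

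Which gene this probe set reads is not settled by the sources used here. The transcript record attached to it is listed under Cyp4b1, a neighbour of Cyp4a1 that encodes another P450 of family 4, in the GRCr8 gene table. Of 2901 probe sets with 1 gene symbol and a transcript record in that table, 12 (0.414%) had a record listed under another gene. The probe set annotated as Cyp4b1 had 0.991, 1.16 and 1.26 in deficient grafts, against 1.08, 1.17 and 1.36 in wild-type grafts, and showed no such difference (log2 difference -0.030, SE 0.09, limma adjusted p = 0.916). No correlation of the pair passed over the arrays (n = 6 in each array set). In array set 1 r was 0.0529 (permutation p = 0.917, adjusted p = 0.992), rho 0.20 and r without the 2 farthest arrays 0.220. In array set 2 r was -0.55 (permutation p = 0.286, adjusted p = 0.572), rho -0.43 and r without the 2 farthest arrays 0.490.

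**Figure D2:**
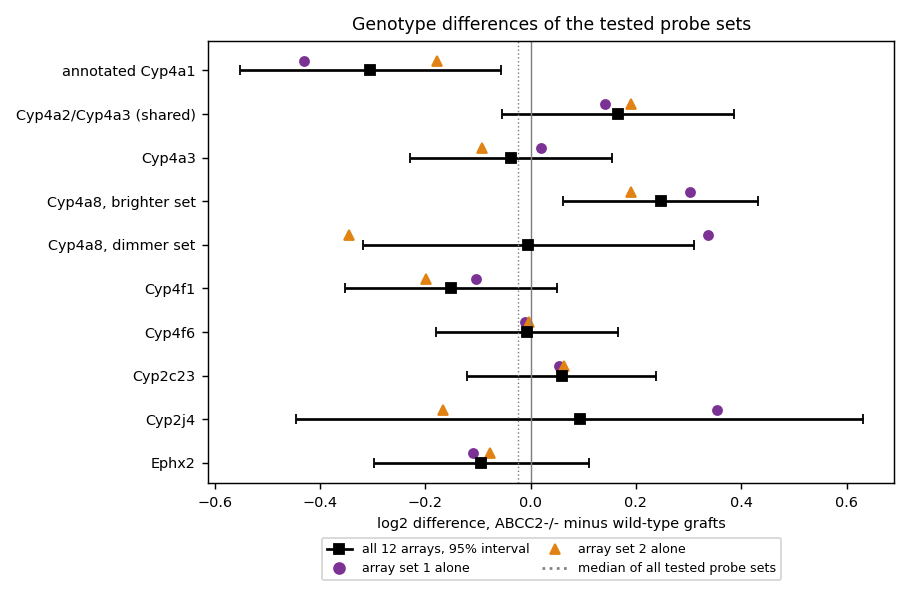
Log2 difference between ABCC2-/- and wild-type grafts for the 10 tested probe sets, as black squares with 95% confidence intervals over 12 arrays, with purple circles for array set 1 alone, orange triangles for array set 2 alone and a dotted line at the median of all tested probe sets (-0.023). The intervals of the probe set annotated Cyp4a1 and of the brighter Cyp4a8 set leave out 0, and the array sets lie on opposite sides of 0 for the dimmer Cyp4a8 set, Cyp2j4 and Cyp4a3.

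Of the Cyp4f family, Cyp4f1, a 20-HETE synthase of rat kidney and liver, had lower values in most deficient grafts. It had 22.1, 26.8 and 32.7 in deficient grafts, against 26.6, 30.3 and 32.1 in wild-type grafts. Of the 6 deficient arrays, 5 lay below the wild-type mean and 3 below every wild-type array, while deficient replicate 9 was the highest of all 12. The 3 below every wild-type array were the deficient arrays of set 2, which also had the lowest Gapdh ratios. The log2 difference was -0.15 (SE 0.10, limma adjusted p = 0.639), with -0.10 in array set 1 (adjusted p = 0.592) and -0.20 in array set 2 (adjusted p = 0.168). With the Gapdh ratio as a covariate the log2 difference over all arrays was -0.055. Cyp4f1 followed the array sets in the direction opposite to the shared Cyp4a2 and Cyp4a3 probe set: deficient arrays had 27.3 to 32.7 in set 1 and 22.1 to 26.2 in set 2, and wild-type arrays 31.5 to 32.1 in set 1 and 26.6 to 29.0 in set 2.

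Cyp4f6, a further member of this family, varied little over the arrays. It had 1.87, 2.06 and 2.34 in deficient grafts, against 1.91, 2.10 and 2.20 in wild-type grafts, and the deficient arrays lay on both sides of the wild-type range. The log2 difference was -0.0073 (SE 0.08, limma adjusted p = 0.980). Cyp4f4, whose enzyme also makes 20-HETE in the rat, was near the floor of 0.0694 and below the level filter, and was not tested. It had 0.0149, 0.0831 and 0.161 in deficient grafts, against 0.0584, 0.100 and 0.137 in wild-type grafts, so the lowest arrays of both genotypes lay under the floor.

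On the epoxygenase branch, Cyp2c23, the main arachidonate epoxygenase of the rat kidney, had a tightly measured signal that differed little between genotypes. It had 56.2, 63.1 and 71.3 in deficient grafts, against 55.8, 58.0 and 72.9 in wild-type grafts, with both genotypes spanning nearly the same range. The fold was 1.04 with 95% limits of 0.920 and 1.18 (log2 difference 0.059, SE 0.08, limma adjusted p = 0.804). These limits are those of the signal, and whether it follows the amount of transcript in proportion was not tested. Its spread followed the array sets: deficient arrays had 56.2 to 61.1 in set 1 and 65.1 to 71.3 in set 2, and wild-type arrays 55.8 to 58.1 in set 1 and 57.9 to 72.9 in set 2, where wild-type replicate 8 was the array within the range of set 1. The log2 difference was 0.054 in array set 1 and 0.063 in array set 2.

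Cyp2c23 is the only one of the 10 genes on chromosome 1, where Abcc2 lies. In the gene order of GRCr8, 4 genes stand between Abcc2 and Cyp2c23, of which 2 are protein-coding, so linked sequence of the stock that carries the Abcc2 mutation and the mutation itself cannot be told apart at Cyp2c23. Dnmbp, the nearer of these, had 1.35 ± 0.222 in deficient and 1.58 ± 0.120 in wild-type grafts (SD, n = 6 each; log2 difference -0.24, SE 0.11, limma adjusted p = 0.625). Cpn1, beside Cyp2c23, had 1.16 ± 0.201 in deficient and 1.22 ± 0.0601 in wild-type grafts (log2 difference -0.10, SE 0.11, adjusted p = 0.758). None of these 3 genes had a difference near that of Abcc2. The alleles that the grafts carry at Cyp2c23 were not analysed here.

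**Figure D3:**
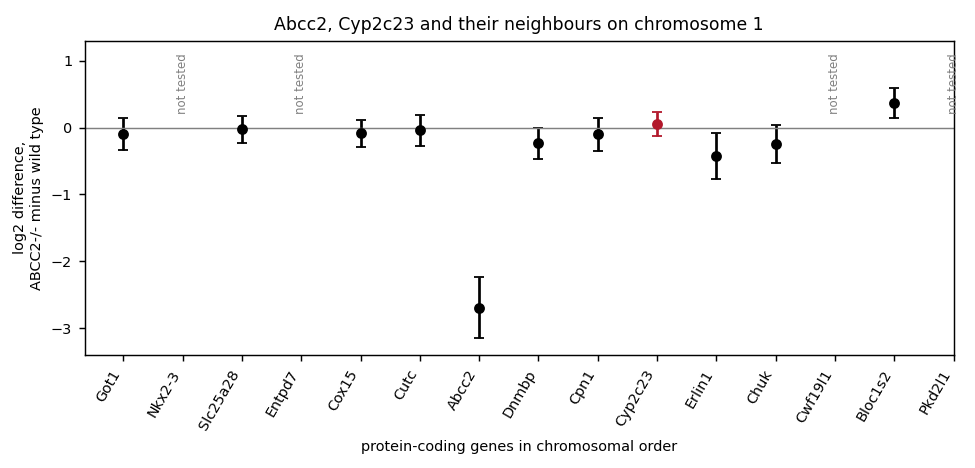
Log2 difference between ABCC2-/- and wild-type grafts with 95% confidence intervals for protein-coding genes in chromosomal order around Abcc2 on rat chromosome 1, with Cyp2c23 in red; genes without a tested probe set are marked as not tested. Abcc2 lies at -2.69 and Cyp2c23, 3 protein-coding genes further on, at 0.059. The intervals of Dnmbp, Erlin1 and Bloc1s2 also leave out 0, which matches an unadjusted limma p under 0.05, found for 7.98% of all tested probe sets. Their adjusted p lay between 0.606 and 0.625, and the difference of Bloc1s2 was positive.

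Cyp2j4, of the CYP2J subfamily, was the most variable of the tested probe sets. It had 0.638, 0.952 and 2.20 in deficient grafts, against 0.729, 0.931 and 1.55 in wild-type grafts, and its highest array, deficient replicate 9, lay well above every wild-type array. The coefficient of variation was 49.9% in deficient and 28.8% in wild-type grafts. The log2 difference was 0.093 (SE 0.25, limma adjusted p = 0.898), with 95% limits of the fold of 0.735 and 1.55, the widest of the tested probe sets. The sign rested on deficient replicate 9: without it the log2 difference was -0.12. The difference was 0.35 in array set 1, which holds that array, and -0.17 in array set 2.

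Ephx2, which hydrolyses the EETs that the epoxygenases make, had 8.01, 9.23 and 9.74 in deficient grafts, against 8.46, 9.39 and 12.8 in wild-type grafts. Wild-type replicate 6 was high, and the other wild-type arrays overlapped with the deficient arrays. The log2 difference was -0.094 (SE 0.10, limma adjusted p = 0.735), with -0.11 in array set 1 and -0.077 in array set 2. Without wild-type replicate 6 the log2 difference was -0.014. The deficient arrays were close together, at 9.07 ± 0.620, against 9.75 ± 1.56 in wild type (SD, n = 6 each).

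The spread within genotypes held a pattern of its own in Cyp2j4 and Cyp4a8. Deficient replicate 9 and wild-type replicate 8 were the highest arrays of their genotype for Cyp2j4 and for both Cyp4a8 probe sets, and these arrays belong to different array sets. The gene whose values were most like those of Cyp2j4 over the 12 arrays, with genotype means removed, was Slco1a1, an organic anion transporter of the proximal tubule (r = 0.982, rho = 0.972). The gene most like the brighter Cyp4a8 probe set was Slc7a12, which encodes an amino acid transporter of the kidney (r = 0.958, rho = 0.888). Slco1a1 had 11.5 in deficient replicate 9 and 2.35 to 6.09 in the other deficient arrays, and 8.66 in wild-type replicate 8 and 3.24 to 6.18 in the other wild-type arrays. Slc7a12 had 3.37 in deficient replicate 9 and 0.756 to 1.71 in the other deficient arrays, and 2.21 in wild-type replicate 8 and 0.692 to 0.899 in the other wild-type arrays.

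The r of these pairs stayed high with the array set means removed and without the highest arrays. With the array set means also removed, r was 0.984 for Cyp2j4 and Slco1a1 and 0.986 for Cyp4a8 and Slc7a12. Without the same 2 arrays, which were the farthest from the median for both genes, r was 0.951 for Cyp2j4 and Slco1a1 and 0.941 for Cyp4a8 and Slc7a12. Each partner was chosen as the highest of all 10639 genes over 12 arrays that share their processing, so r describes a likeness and carries no p. The further values of r come from the arrays used for that choice, so they cannot decide what the likenesses rest on. Cyp2c11, an androgen-dependent P450 of male rat liver that was measured in the list of other hydroxylases and epoxygenases, was highest in the same arrays. It had 11.8 in deficient replicate 9 and 0.478 to 2.62 in the other deficient arrays, and 5.12 in wild-type replicate 8 and 1.84 to 3.85 in the other wild-type arrays.

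**Figure D4:**
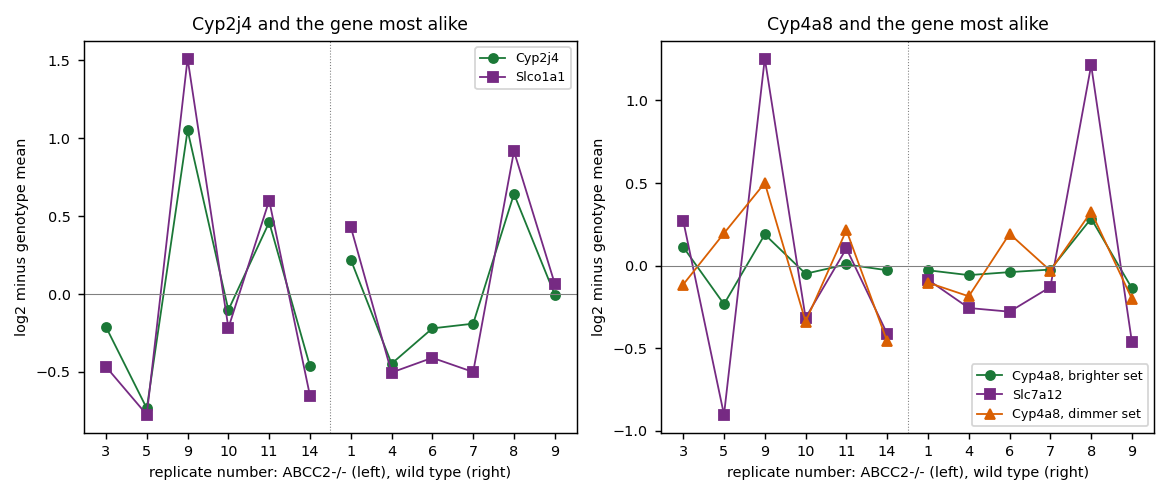
Log2 signal minus the mean of its genotype for Cyp2j4 with Slco1a1 (left panel) and for both Cyp4a8 probe sets with Slc7a12 (right panel), with ABCC2-/- replicates left and wild-type replicates right of the dotted line; lines join points only to guide the eye. ABCC2-/- replicate 9 and wild-type replicate 8 are the highest of their genotype for each gene drawn.

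The partners of the other genes were found by the same rule. Cyp2c23 was most like Mdh1, the cytosolic malate dehydrogenase (r = 0.970, rho = 0.958), and Cyp4f1 most like Ush1c, a scaffold protein of microvilli (r = 0.980, rho = 0.965). With the array set means removed, r was 0.929 for Cyp2c23 and Mdh1 and 0.928 for Cyp4f1 and Ush1c. Cyp4a3 was most like Ech1, an enzyme of fatty acid oxidation in peroxisomes and mitochondria (r = 0.907, rho = 0.881). Ephx2 was most like Clec14a, an endothelial membrane protein (r = 0.951, rho = 0.860), and Cyp4f6 most like Gps2, a transcriptional cofactor (r = 0.913, rho = 0.916). The probe set annotated Cyp4a1 was most like LOC102550045 (r = 0.896, rho = 0.874). Without the 2 arrays farthest from the median, r of these 6 pairs lay between 0.848 for Ephx2 and 0.970 for Cyp4f1.

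Genes around the pathway were counted by the same fit, each through its probe set with the highest mean, and no gene of these lists passed the threshold. Over all 10639 tested genes, 4401 had a positive and 6238 a negative difference (median -0.041). Of 10 tested genes among the other fatty acid hydroxylases and epoxygenases, 3 had a positive and 7 a negative difference (median -0.026). In this list the log2 difference was -0.98 for Cyp2c11 (SE 0.57, limma adjusted p = 0.635). It was -0.25 for Cyp2s1, a P450 of epithelia outside the liver (SE 0.17, adjusted p = 0.640). Among the other epoxide hydrolases, Ephx1, the microsomal enzyme, had 11.5, 13.4 and 14.7 in deficient grafts, against 8.70, 11.1 and 11.9 in wild-type grafts (log2 difference 0.28, SE 0.09, adjusted p = 0.606). All deficient arrays but replicate 14 lay above every wild-type array. For Lta4h, which makes leukotriene B4, the log2 difference was -0.20 (SE 0.13, adjusted p = 0.639).

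The supply of electrons and heme to P450 enzymes and the supply of arachidonate were measured too. In the first list 4 of 8 tested genes had a positive and 4 a negative difference (median -0.033). Hmox1, which degrades heme, was at 0.97 (SE 0.21, limma adjusted p = 0.465). Cyb5b, an outer mitochondrial cytochrome b5, was at -0.25 (SE 0.14, adjusted p = 0.629). Cyb5b had 4.06 to 4.51 in the deficient arrays of set 2, which also had the lowest Gapdh ratios. It had 6.06 to 7.36 in the deficient arrays of set 1 and 5.53 to 6.98 in wild type. Of 13 tested genes of arachidonate release and re-esterification, 5 had a positive and 8 a negative difference (median -0.096). Of these, the secreted phospholipase gene Pla2g10 had 0.48 (SE 0.18, adjusted p = 0.606) and the lysosomal phospholipase gene Pla2g15 -0.23 (SE 0.10, adjusted p = 0.614). Of 7 tested genes of 20-HETE and EET signalling and fate, 3 had a positive and 4 a negative difference (median -0.047). Of these, the glucuronosyltransferase gene Ugt2b7 had 0.61 (SE 0.24, adjusted p = 0.610) and the fatty aldehyde dehydrogenase gene Aldh3a2 -0.24 (SE 0.11, adjusted p = 0.625).

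Ppara, which encodes the receptor that controls Cyp4a genes, was below the level filter and not tested. Its probe set had 0.0225, 0.0758 and 0.184 in deficient grafts, against 0.0113, 0.0246 and 0.186 in wild-type grafts, and values on both sides of the floor in each genotype. Of 20 tested partners and targets of this receptor 7 had a positive and 13 a negative difference (median -0.10, or -0.017 with the mean of all probe sets of a gene). The receptor partner Rxrb had -0.60 (SE 0.23, limma adjusted p = 0.606) and the coactivator Ppargc1a -0.37 (SE 0.13, adjusted p = 0.606). The difference of the brighter Cyp4a8 probe set was positive and that of the probe set annotated Cyp4a1 negative beside these values. Markers of the proximal tubule, where the Cyp4a and Cyp2c23 enzymes are made, showed a positive difference in 12 and a negative one in 14 of 26 tested genes (median -0.010). Of these, the glucose transporters Slc5a2 and Slc2a2 had -0.38 (SE 0.11, adjusted p = 0.606) and -0.32 (SE 0.12, adjusted p = 0.606). The mean log2 signal of the 26 genes per array lay between 4.02 and 4.49 in deficient grafts and between 4.15 and 4.34 in wild-type grafts.

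**Figure D5:**
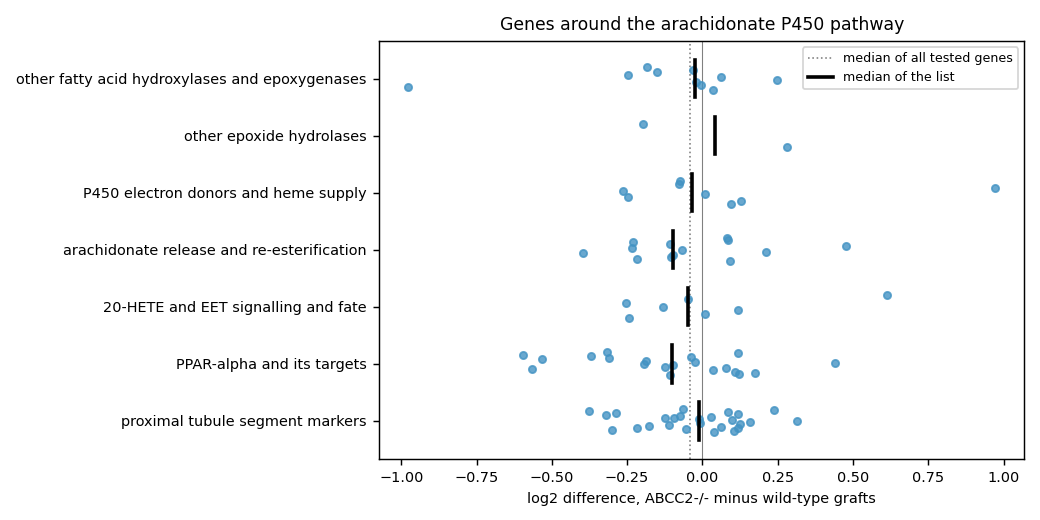
Log2 difference between ABCC2-/- and wild-type grafts for each tested gene (blue points) of 7 lists around the P450 route of arachidonate, with black bars at the median of each list and a dotted line at the median of all tested genes (-0.041). The list medians lie between -0.10 and 0.042, and the points farthest out are Cyp2c11 at -0.98 and Hmox1 at 0.97.

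Markers of other cells of the cortex gave these values beside the P450 genes, and none passed the threshold. Of 9 tested distal tubule and collecting duct markers 8 had a negative difference (median -0.13), against 6238 of all 10639 tested genes. An unadjusted limma p under 0.05 was found for 3 of the 9, against 813 of the 10639. In this list Calb1, the 1 positive member, had a log2 difference of 0.10 and Aqp2 -0.13, while Slc26a4, Slc4a1 and Slc12a3, named after their values were seen, had -0.42, -0.41 and -0.40. The mean log2 signal of the list per array lay between 2.09 and 2.41 in deficient and between 2.06 and 2.54 in wild-type grafts.

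Of 4 podocyte and glomerulus markers all were negative, though 2 were positive with the mean of all probe sets of a gene, with Podxl at -0.15 and Synpo at -0.079, and of 5 smooth muscle and mesangium markers all were positive, with Myh11 at 0.19 and Tagln at 0.020. Of 5 thick ascending limb markers 3 were positive, with Umod at 0.023 and Cldn10 at 0.12, and of 5 endothelial markers 2 were positive, with Kdr at -0.085 and Emcn at 0.075. Of 5 macrophage and T cell markers 3 were positive, with Cd68 at 0.15 and Csf1r at 0.16. Of 4 hepatocyte markers 3 were positive, with Apoc3 at 0.068, and the 1 negative member was Cyp2c11 at -0.98. Adipoq of fat had -0.074, and the abundant proximal tubule genes Kap and Miox 0.13 and 0.16. The part of these cell types in the values of the P450 genes was not tested.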

How the data were processed

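Total RNA of renal cortex was labelled with biotin and hybridized to Affymetrix 3′ expression arrays, 1 per graft, per the labels' protocols. The deposited table holds probe set intensity on a linear scale, and the submitters' processing notes name the software MAS5 and GCOS with no version. In each array 99.8% to 99.9% of the deposited intensity values were whole steps, within 0.01 of a step, after multiplication by a constant between 104 and 197 whose origin the sources used here do not give. Of the values, 3.56% stood at a minimum of 0.01. The number of arrays, not a read depth, limits the precision.

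The 57 control probe sets were left out, values under the pooled 20th percentile (0.0694) were raised to it, log2 was taken and probe sets with a mean at or above the 40th percentile were tested, 18625 of 31042. A fold near the floor is therefore understated. Groups came from the sample titles. The test was limma 3.58.1 in R 4.3.3 (lmFit, eBayes with a mean-variance trend, genotype as the sole factor) with Benjamini-Hochberg adjustment over all tested probe sets and a threshold of 0.05. The test was also run on simulated data with independent noise for each probe set. These data lack the array sets and the Gapdh ratio differences, so the run cannot tell how the test behaves under them. Correlations within array sets used two-sided permutation tests over all pairings in scipy 1.17.1. The genotype means within the array set were removed first, so these p-values are approximate. Promoters were aligned with Biopython 1.88.

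Names came from the platform annotation (20832 probe sets with 1 symbol, 436 with several, 9780 not listed), updated through Entrez numbers to the GRCr8 gene table for 20764. Only names and gene order were taken from it, as no source used here gives the build of the array. For lists, a gene stood by its single-gene probe set with the highest mean.

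The genes and lists were chosen with earlier results of these data known, so no list supports another. The text names the 10 genes, Abcc2, the 2 genes of lowest p in each pathway list, the 2 brightest markers of each cell type, the gene most like each of the 8 with a tested probe set of their own over arrays, and genes between Abcc2 and one of the 10. Cyp4b1, Ppara, Alb, Slc26a4, Slc4a1, Slc12a3, Erlin1 and Bloc1s2 were named after their values were seen. Alternatives changed the floor, filter, normalization, variance model, array weights, the Gapdh covariate and the arrays left out, and the array set fits were added after the data were seen.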

Additional observations from a re-analysis of the deposited data

Results flagged for a closer look

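In 22 checks of a probe set within a genotype, 3 had an array far from the others of its genotype, and chance marks about 1 in 20 such groups. The brighter Cyp4a8 probe set had 27.8 in wild-type replicate 8, above the other wild-type arrays. Ephx2 had 12.8 in wild-type replicate 6, and without that array its log2 difference was -0.014. The probe set shared by Cyp4a2 and Cyp4a3 had 101 in wild-type replicate 4, and its log2 difference without that array was 0.24.

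The poly-A control transcripts, which stand outside the comparison of genes, were higher in every deficient array than in every wild-type array. The mean was 7.02 times as high for dap, 6.69 times for lys, 6.21 times for phe and 6.03 times for thr. Dap lay between 2.71 and 4.12 in deficient arrays and between 0.405 and 0.772 in wild-type arrays. The amount of spike or RNA at labelling and the genotype cannot be told apart by these controls.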

How the results depend on the processing

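None of the 10 tested probe sets passed the threshold under any alternative, with adjusted p from 0.108 (the brighter Cyp4a8 set with the array sets as a block) upward. Over all probe sets 4 passed in the fit as reported, 2 with the level filter at the 60th percentile, 112 with the array sets as a block, 3 with that block and the Gapdh ratio as a covariate, 1190 in array set 2 alone, and 3 to 5 with 1 array left out. The array sets were defined from these values, so those fits are not independent of the data. The fit with the array set block left every difference as it was.

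The brighter Cyp4a8 set (0.19 to 0.30 over the alternatives), the probe set annotated Cyp4a1 (-0.43 to -0.18), Cyp4f1 (-0.21 to -0.055), Ephx2 (-0.15 to -0.040), the shared Cyp4a2 and Cyp4a3 set (0.017 to 0.21) and Abcc2 (-2.99 to -2.40) kept their direction. Values of small size changed sign, and the cause was not tested. With quantile normalization Cyp2c23 was at -0.052, Cyp4f6 at 0.052 and the dimmer Cyp4a8 set at 0.012. With the Gapdh ratio as a covariate Cyp2c23 was at -0.0018 and the dimmer Cyp4a8 set at 0.17, and with the array set block beside that ratio the dimmer Cyp4a8 set was at 0.13. With array weights the dimmer Cyp4a8 set was at 0.072. In array set 1 alone the dimmer Cyp4a8 set was at 0.34 and Cyp4a3 at 0.019, and in array set 2 alone Cyp2j4 was at -0.17. With the mean of all probe sets of a gene, the median of the electron and heme list was 0.047, and that of the PPAR-alpha list -0.017. Median centring moved the median of all tested probe sets from -0.023 to -0.080.

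With 1 array left out, the log2 difference lay between 0.21 and 0.30 for the brighter Cyp4a8 set, -0.10 and 0.087 for the dimmer set, -0.36 and -0.23 for the probe set annotated Cyp4a1, 0.12 and 0.24 for the shared set, -0.082 and 0.0051 for Cyp4a3, -0.21 and -0.098 for Cyp4f1, -0.041 and 0.024 for Cyp4f6, 0.023 and 0.11 for Cyp2c23, -0.12 and 0.24 for Cyp2j4, -0.13 and -0.014 for Ephx2, and -2.82 and -2.50 for Abcc2. No paired analysis was possible because the genotypes share a single replicate number, 9. With 6 arrays per genotype, differences within the stated intervals cannot be told from none.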
